A study of Mus musculus with 15 samples.

Results

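The stefin A cluster of mouse chromosome 16 holds a row of small, closely related genes for inhibitors of cysteine proteases. Its members here were Stfa1, Stfa2l1, Stfa3, Cstdc4 and Csta2, 5 of the 22180 genes that had a probe set with 1 gene symbol. They were chosen by the log2 signals of these same arrays, as stefin and cystatin A genes among the strongest neutrophil-type differences, so their differences between groups are given as values without a test. All 5 passed the filter on low values that left 14822 genes for testing, as a gene that is high in some group must.

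Stefins are small proteins of the cytosol that belong to the cystatin superfamily. They sit in the active site cleft of papain-like cysteine proteases, such as the lysosomal cathepsins B, L, S and H, and block them reversibly. In humans stefin A, from the gene CSTA, is abundant in skin and in neutrophils, whereas the mouse locus has been duplicated many times and its copies are known from bone marrow and neutrophils.

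Expression was read on 15 single-colour Affymetrix arrays, in 5 groups of 3, from C57Bl/6 mouse cells, with 6 ug of RNA as input for the biotin-labelled cRNA. In the groups with the title codes GFW and RB the cells were taken from spleens of wild-type mice after treatment with G-CSF, the growth factor that drives neutrophil output and releases myeloid cells from the marrow. They were sorted as positive for CD11b and CD34 after cells with CD4, CD8, Ly6G, B220 or Ter119 had been removed. GFK cells passed the same sort and came from G-CSF-treated mice labelled iNOS knockout, and GFE cells were wild-type sorted cells kept for 3 days in StemSpan medium with Flt3 ligand and SCF. MDSC cells were Ly6C+CD11b+ cells from marrow of untreated mice, cultured with G-CSF, GM-CSF and IL-13.

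GFW and RB carry the same labels and differ in the code that the title gives in brackets. The first part of that bracketed code is shared by GFW, GFE and GFK but is another one for RB and for MDSC. A difference between array sets and a difference between these groups thus cannot be told apart. Whether the 3 replicates of a group were different mice is not stated in the labels, so a p value measures only how these samples vary, and that variation may be technical. Nos2, the gene of iNOS, had a log2 signal of 8.84, 8.91 and 8.92 on the GFK arrays, which are labelled iNOS knockout, against 8.09, 8.32 and 8.43 in GFW, 5.80, 6.21 and 5.94 in RB, 6.14, 6.17 and 6.26 in MDSC, and 6.57, 6.68 and 6.64 in GFE. It was thus above GFW on the arrays labelled knockout, and which exons its probe set reads was not tested. The gate marker Ly6g was high on the GFW arrays (12.21, 12.16 and 12.19) and on the GFK arrays (12.13, 12.09 and 12.03), although Ly6G-positive cells had been removed by the sort. It was 6.19 to 6.38 in RB, 5.78 to 5.83 in MDSC and 4.13 to 4.36 in GFE. Cd34, which the sort selected for, was 6.99 to 7.39 in GFW, 5.79 to 5.99 in RB and 11.26 to 11.31 in GFE.

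In the RefSeq gene order of GRCm38.p6 the locus runs Csta1, Stfa2l1, Cstdc4, Csta3, Csta2, Stfa1, Cstdc3, Cstdc6, Cstdc5, Stfa2 and Stfa3, 11 genes with a stefin or cystatin name, between Ccdc58 and Casr on chromosome 16, and the predicted gene Gm7260 lies among them. Promoter sequences were at hand for 10 of the 11 genes, and the 150 bases before the listed start of each member are printed to show what the duplicated copies share and where Csta2 departs from it. The capitals mark ACCTTTAAAACCC, a block of 13 bases. It is the longest run that the windows of Stfa2l1, Cstdc4, Stfa1 and Stfa3 share, and it was looked for after the sequences had been seen.
Stfa2l1 (chr16:36156661-36156810, plus strand): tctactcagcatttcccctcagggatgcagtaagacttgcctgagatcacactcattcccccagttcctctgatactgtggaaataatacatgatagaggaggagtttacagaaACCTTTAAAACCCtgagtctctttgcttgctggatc
Cstdc4 (chr16:36184062-36184211, plus strand): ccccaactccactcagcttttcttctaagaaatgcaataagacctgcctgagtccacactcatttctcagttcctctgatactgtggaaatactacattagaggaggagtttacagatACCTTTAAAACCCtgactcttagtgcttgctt
Stfa1 (chr16:36276998-36277147, plus strand): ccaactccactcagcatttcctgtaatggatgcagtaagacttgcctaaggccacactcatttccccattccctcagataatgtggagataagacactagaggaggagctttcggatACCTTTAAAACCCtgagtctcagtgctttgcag
Stfa3 (chr16:36455393-36455542, minus strand): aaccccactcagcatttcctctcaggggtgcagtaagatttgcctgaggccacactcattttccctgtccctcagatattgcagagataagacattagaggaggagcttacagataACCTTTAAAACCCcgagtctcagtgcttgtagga
Csta2 (chr16:36221412-36221561, plus strand): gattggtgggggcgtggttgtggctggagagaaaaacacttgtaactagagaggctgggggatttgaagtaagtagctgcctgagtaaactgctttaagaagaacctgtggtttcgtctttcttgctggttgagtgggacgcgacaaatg
The block began 36 bases before the listed start of Stfa2l1, 32 before that of Cstdc4, 33 before that of Stfa1 and 34 before that of Stfa3, and it was absent from the Csta2 window. Aligned in pairs, the promoters of the other 4 members were 76.8% to 84.3% identical in 6 pairs. That of Csta2 was 45.3% to 48.4% identical to them in 4 pairs. Such values were not particular to Csta2. Csta3, which carries the block, was 43.5% to 46.2% identical to the same 4 members, and Csta1 48% to 52%.

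Over all 32851 RefSeq promoters of 300 bases, 250 before and 50 after the start, ACCTTTAAAACCC occurred on either strand in 9, or 0.0274%. Of the 11 promoter entries of the locus 8 carried it, among them those of Csta3, Stfa2, Cstdc5 and a start of Cstdc3, and the remaining 1 belonged to the predicted gene Gm7260, which lies between Cstdc5 and Stfa2. Its inner part TTTAAAA was found in 8.74% of all promoters and in the same 4 members. The TATA box TATAAA was in 13.6% of all promoters and in 0 of the 5 members. Of the motifs of myeloid factors, GAGGAA (PU.1 type) was in 28.3% of all promoters and in 4 members, Csta2 being the exception. TTNNGCAA (C/EBP type) was in 10.8% and in Stfa1, and TTCNNNGAA (STAT type) in 8.3% and in Cstdc4. All were searched on both strands. The search covered the 300 bases, so a match may lie outside the 150 bases printed, as that of GAGGAA in Stfa1 does. Whether a factor binds at any of these matches was not tested.

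Stfa1, the first numbered of the stefin A genes, was high in 3 of the 5 groups. Its log2 signal was 12.50, 12.50 and 12.57 in GFW, 12.52, 12.38 and 12.16 in GFK and 12.54, 12.78 and 12.51 in MDSC, and these groups overlapped. In RB it was 6.66, 5.32 and 6.25 and in GFE 5.25, 4.46 and 4.76, with no overlap between RB and GFE and none with the other groups.

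Stfa2l1, a stefin A2-like copy, was high in the same groups. Its signal was 13.10, 13.09 and 13.01 in GFW, 12.93, 13.02 and 12.91 in GFK, and 12.39, 12.53 and 12.44 in MDSC. In RB it kept an intermediate level of 8.71, 8.79 and 8.32, and in GFE it was 4.18, 3.65 and 3.59. GFW and GFK overlapped, and MDSC, RB and GFE each stood apart below them in that order.

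Stfa3 was 11.60, 11.44 and 11.56 in GFW, 11.38, 11.46 and 11.45 in GFK and 11.08, 11.08 and 11.01 in MDSC. Its RB values of 5.07, 5.48 and 4.997 and its GFE values of 4.83, 3.87 and 3.38 were near background, which is used here for a group mean that ranks under the 40th percentile of probe sets (5.34 to 5.58 log2 on these arrays). Cstdc4, another cystatin-domain copy of the locus, was 12.20, 12.05 and 12.11 in GFW, 12.08, 12.13 and 11.92 in GFK, 11.79, 11.95 and 11.65 in MDSC, 6.49, 5.98 and 5.41 in RB and 3.53, 3.22 and 2.86 in GFE. The order GFW, GFK, MDSC, RB and GFE was thus that of Stfa2l1, Stfa3 and Cstdc4. GFK overlapped GFW in each of these genes and overlapped MDSC in Cstdc4.

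Csta2 had another pattern. Its signal was 7.48, 8.26 and 8.28 on the GFK arrays and 6.20, 6.46 and 5.24 on the GFW arrays, without overlap. In MDSC (4.58, 3.48 and 3.82), RB (4.07, 3.11 and 4.02) and GFE (3.97, 3.44 and 3.55) it was near background and the 3 groups overlapped. Against GFW and GFK it was the member that was near background in MDSC, as it was in RB, and it was the member whose GFK and GFW arrays did not overlap.

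**Figure D1:**
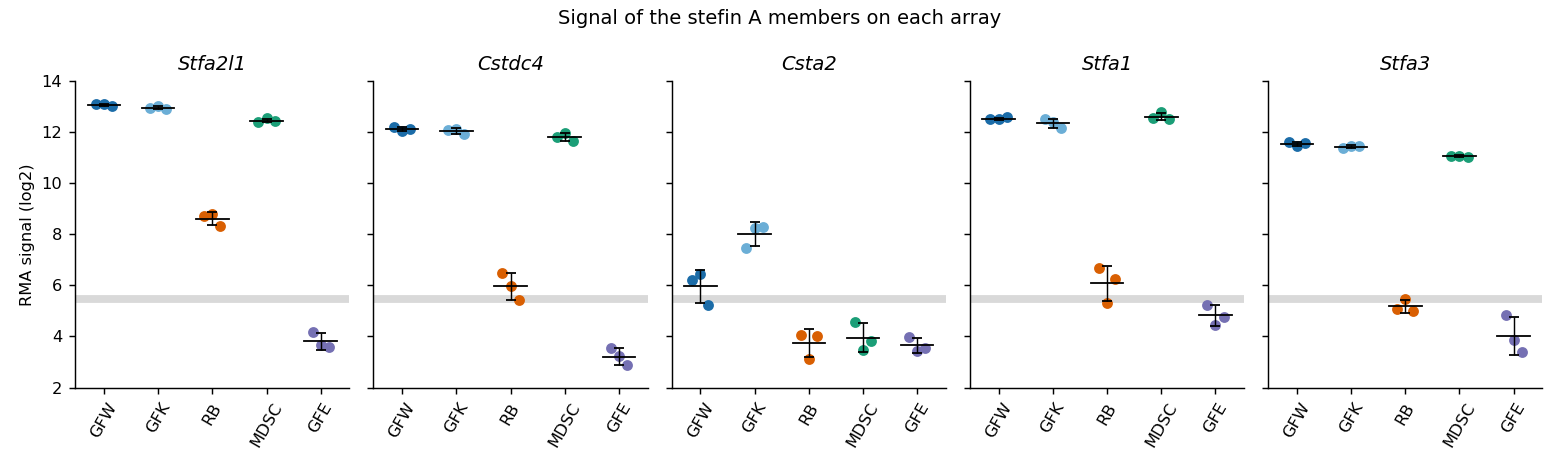
Log2 RMA signal of the 5 members in locus order on each of the 15 arrays, with points for arrays, a line for the group mean, error bars for the SD of 3 arrays, and a grey band for the 40th percentile of probe sets (5.34 to 5.58). Stfa2l1, Cstdc4, Stfa1 and Stfa3 were high in GFW, GFK and MDSC and low in RB and GFE, whereas Csta2 was highest in GFK and near background in RB, MDSC and GFE.

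After culture in Flt3 ligand and SCF all 5 members were lower than in freshly sorted GFW cells, with no overlap of arrays in any of them. Over all genes tested 67.0% were called different in this comparison (limma, adjusted p under 0.05), and 37.1% were lower with no overlap of arrays. The GFE mean of each member was near background, so the size of the fall has a lower bound, computed against the 40th percentile of an array wherever the signal lay under it. Stfa2l1 was at least 205-fold lower, Stfa1 at least 141-fold, Cstdc4 at least 107-fold and Stfa3 at least 71.2-fold. Csta2, whose GFW signal itself was close to that floor, was at least 1.5-fold lower. The median of the 5 measured log2 differences was -7.70, beside -0.06 over all genes tested. In bulk RNA of this kind, fewer cells of a type and less RNA per cell cannot be told apart.

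The RB arrays, which carry the labels of GFW, also had lower signal for all 5 members, again with no overlap, while 52.4% of all genes tested were called different and 28.8% were lower with no overlap. Stfa1 was 87.3-fold lower (a log2 difference of -6.45), Cstdc4 71.4-fold (-6.16) and Stfa2l1 21.9-fold (-4.45). Stfa3 was at least 69.8-fold lower and Csta2 at least 1.49-fold. The median log2 difference of the members was -6.16, beside -0.06 over all genes. Stfa2l1, at 8.61 ± 0.25 (SD, n = 3) in RB, stayed above background there, as did the group means of Stfa1 and Cstdc4. Single arrays of these 2 genes were near the floor of 5.34 to 5.58, with Stfa1 at 5.32 on RB replicate 2 and Cstdc4 at 5.41 on RB replicate 3. Their folds against RB, here and for MDSC below, thus rest partly on values near background.

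MDSC cells held 4 of the members near their GFW level. Stfa1 differed by 0.08 log2 with overlapping arrays. Cstdc4 was lower by 1.25-fold (12.12 against 11.80), Stfa3 by 1.39-fold (11.53 against 11.06) and Stfa2l1 by 1.53-fold (13.06 against 12.45), each without overlap. Csta2 was at least 1.5-fold lower. Arrays did not overlap for 4 of the 5 members, all of them lower, while 36.3% of all genes tested were lower without overlap and 62.2% were called different, and the members' median difference was -0.48 beside -0.08 over all genes.

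Set against the RB arrays, MDSC cells had Stfa1 92.5-fold, Cstdc4 57.2-fold and Stfa2l1 14.4-fold higher, and Stfa3 at least 50.1-fold higher. These 4 members did not overlap, in a comparison in which 48.1% of all genes were called different and 31.3% were higher with no overlap. Csta2 was near background in both groups. This comparison shares its arrays with those against GFW, so that the values of the members in it follow from the ones above.

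Between GFK, labelled iNOS knockout, and GFW the arrays of 4 members overlapped. The log2 difference of GFK from GFW was -0.17 for Stfa1, -0.11 for Stfa2l1, -0.10 for Stfa3 and -0.08 for Cstdc4, and the values of both groups lay above those of RB and GFE in each. Csta2 was 4.12-fold higher on the arrays labelled knockout (8.01 ± 0.46 against 5.97 ± 0.64, SD, n = 3). It was the 1 member of 5 without overlap, while 8.26% of all genes tested were higher without overlap and 1.61% were called different.

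The members also differed in how closely they followed each other. With each gene centred on its own mean over the 15 arrays, the root mean square (RMS) difference was 0.481 log2 between Stfa1 and Stfa3, 0.614 between Stfa1 and Cstdc4 and 0.66 between Stfa3 and Cstdc4. Stfa2l1 lay 0.776 from Cstdc4, 1.17 from Stfa3 and 1.21 from Stfa1. Csta2 lay 2.55 to 2.95 from each of the others. The copies are similar in sequence, and how far the probe set of a copy also reads the others was not tested.

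The other genes of the locus were not used in the choice. Csta1 and Cstdc3 were near background in all 5 groups and did not pass the filter, at 3.93 to 4.80 and 3.99 to 5.77 log2 over the 15 arrays. Cstdc3 carries the promoter block at its second listed start. The remaining 4, the stefin gene Stfa2 and the related Csta3, Cstdc5 and Cstdc6, were near background in RB and in GFE, so they passed the filter only through GFW, GFK and MDSC, and that they were lower in RB and GFE is given as values without a test. In GFE, Csta3 was at least 15.2-fold lower than in GFW, Cstdc5 at least 8.75-fold, Stfa2 at least 6.96-fold and Cstdc6 at least 3.78-fold. In RB the bounds were 15.1, 8.72, 6.93 and 3.77-fold in the same order.

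Between MDSC and GFW, where all 4 were above background, they were tested in the fit of all genes, and they parted. Of the 4, 3 were called, beside 62.2% of all genes tested. Csta3 rose from 8.94, 9.59 and 9.37 in GFW to 10.35, 10.28 and 10.06 in MDSC (1.90-fold, limma adjusted p = 0.00625), and Cstdc6 from 8.19, 7.42 and 6.29 to 9.16, 9.34 and 8.54 (3.28-fold, 0.00279). Stfa2 fell from 7.96, 8.497 and 8.08 to 6.88, 7.31 and 7.12 (2.11-fold, 0.00188). Cstdc5 was not called (a log2 difference of -0.06, adjusted p = 0.77) with its brighter probe set, the one used throughout. With the mean of its 2 probe sets the difference was 0.59 (adjusted p = 0.0201), so the direction for Cstdc5 depends on the probe set. All 4 were higher in MDSC than in RB, from at least 3.28-fold for Stfa2 to at least 28.7-fold for Csta3. On the arrays labelled knockout 0 of 4 were called, beside 1.61% of all genes tested. Of the 4, 1 had an unadjusted p under 0.05, and the lowest adjusted p was 0.289 (Cstdc5, -0.42 log2).

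**Figure D2:**
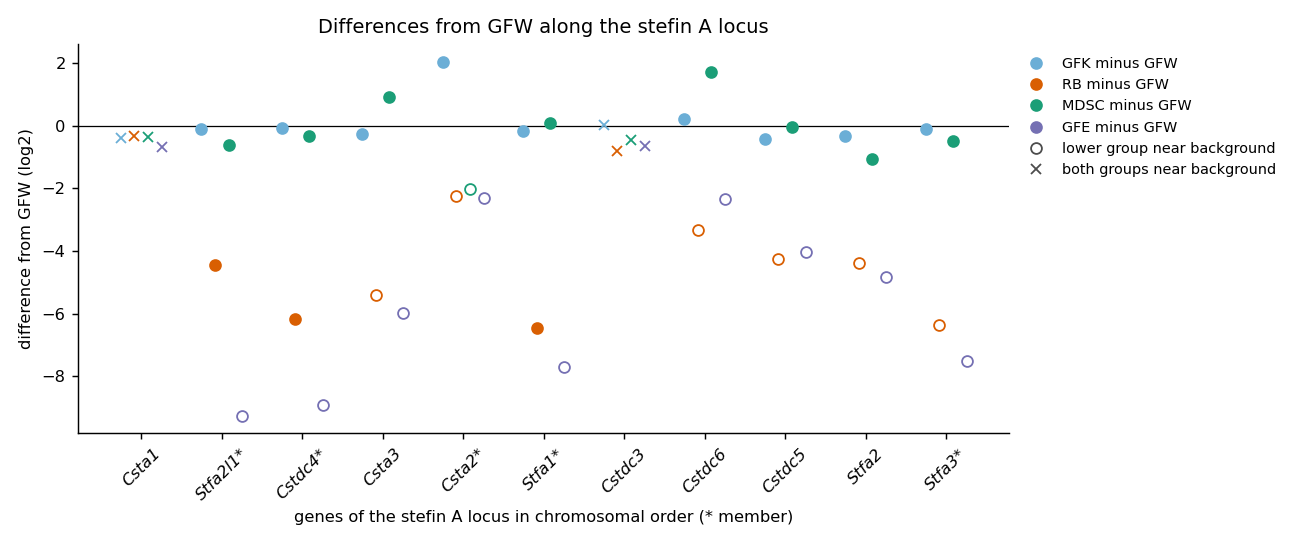
Log2 difference from GFW of the 11 genes of the stefin A locus in chromosomal order, with members starred, filled circles where both groups were above background, hollow circles where the lower group was near background and crosses where both were. RB and GFE lay below GFW at every gene above background, MDSC lay near GFW except at Csta2, Csta3, Cstdc6 and Stfa2, and GFK stood clear of 0 at Csta2.

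Genes that flank the locus on chromosome 16 were taken from the RefSeq order, and 20 of 22 were tested. In GFE 6 were higher and 11 lower, and with each array centred on its median 6 and 6. The 17 calls of 20 stand beside 67.0% of all genes tested. Ccdc58, next to Csta1, was higher (2.31 log2, adjusted p = 6.71e-10). The co-stimulatory ligand Cd86 fell most, by 3.77-fold (7.05e-07), and Casr, the calcium-sensing receptor gene next to Stfa3, was lower by 1.35-fold (0.00499). In RB 7 were higher and 3 lower, and these 10 calls of 20 were near the 52.4% over all genes tested. Fam162a fell most, by 2.37-fold (2.06e-07), Casr was 1.42-fold lower (0.00248) and Cd86 was higher by 0.93 log2 (0.00163). In MDSC 4 were higher and 10 lower than in GFW, or 5 and 6 after centring, while 62.2% of all genes tested were called. Ccdc58 was higher by 2.41 log2 (5.99e-10) and the ADP-ribosyltransferase Parp14 lower (-2.09, 3.34e-09). MDSC minus RB gave 3 higher, led by Fam162a (2.59, 3.12e-11), and 8 lower, led by Cd86 (-2.67, 2.90e-08), while 48.1% of all genes tested were called. On the arrays labelled knockout the peptide transporter Slc15a2 was the single call (0.64, 0.0187), beside 1.61% of all genes tested. Leaving out any 1 of 4 of the 6 arrays (GFK replicates 2 and 3, GFW replicates 1 and 2) ended that call (adjusted p up to 0.0782).

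The papain-like cathepsins, the proteases that stefins inhibit, were all tested, 10 in number. In RB, where the members were low, Ctsl alone of them was called lower. Cathepsin B (Ctsb) was 11.46, 11.54 and 11.59 in GFW, 11.66, 11.76 and 11.86 in GFK, 11.56, 11.76 and 11.76 in RB and 11.94, 11.88 and 12.05 in MDSC, and fell to 9.66, 9.80 and 9.89 in GFE. Cathepsin S (Ctss) was 11.75, 11.83 and 11.81 in GFW and 12.10, 12.22 and 12.32 in RB. The RB arrays overlapped those of GFW for Ctsb and lay above them for Ctss.

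Counted over the list, 4 cathepsins were higher in RB and 1 lower than in GFW, with a list median of 0.29 log2 beside -0.06 over all genes. These 5 calls of 10 stand beside 52.4% called over all genes tested, so the count is near that share. Ctsc, the cathepsin that activates granule serine proteases, was 2.46-fold higher (adjusted p = 1.86e-08), Ctsh 2.32-fold (6.39e-08), Ctsz 2.12-fold (1.70e-06) and Ctss 1.33-fold (0.00152). Ctsl fell 1.54-fold (0.0027), and Ctsb was not called (0.16 log2, 0.198). In GFE 7 were lower and 1 higher, or 5 and 2 after each array was centred on its median, and a median of -0.69 beside -0.06. Over all genes tested 67.0% were called in GFE, beside 8 of the 10 cathepsins. Ctsb fell 3.35-fold (5.93e-10), Ctsc 2.72-fold (1.75e-09), Ctss 2.51-fold (3.66e-09), Ctsh 2.5-fold (8.02e-09) and Ctsl 1.68-fold (4.18e-04), and Ctso rose 1.74-fold (7.49e-04).

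In MDSC 5 cathepsins were higher than in GFW and 1 lower, or 6 and 0 after centring, with a median of 0.29 beside -0.08. These 6 calls of 10 were near the 62.2% called over all genes tested. The bone-resorbing cathepsin Ctsk was at least 4.54-fold higher (1.31e-07), Ctsz 2.72-fold (2.75e-08), Ctsc 2.15-fold (4.91e-08) and Ctsb 1.34-fold (0.00232). Ctsl was 1.37-fold higher (0.0162), a call lost without MDSC replicate 3 (0.0633). Ctsh (0.15 log2, 0.182) and Ctss (0.06, 0.575) were not called. MDSC minus RB gave 4 higher and 3 lower, or 7 calls of 10 beside 48.1% of all genes tested. Ctsk was 3.66-fold (1.96e-06) and Ctsl 2.12-fold (1.88e-05) higher, and Ctsh 2.09-fold (2.06e-07) and Ctss 1.28-fold (0.00463) lower. The MDSC minus RB calls of Ctsb (adjusted p up to 0.173), Ctso (0.143) and Ctsz (0.0907) were each lost in fits without 1 array, and 2 higher and 2 lower were left without MDSC replicate 3. Leaving out any of the 6 arrays compared ended at least 1 of these 3 calls.

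On the arrays labelled knockout 0 of 10 cathepsins were called by limma, beside 1.61% of all genes tested, and 4 had an unadjusted p under 0.05. The lowest adjusted p was that of Ctsc (0.37 log2, 0.0653), which passed in the fit with an intensity trend (0.00664). Ctsb (0.23, 0.388), Ctsl (0.23, 0.62), Ctss (0.12, 0.681) and Ctsh (-0.13, 0.69) did not pass.

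**Figure D3:**
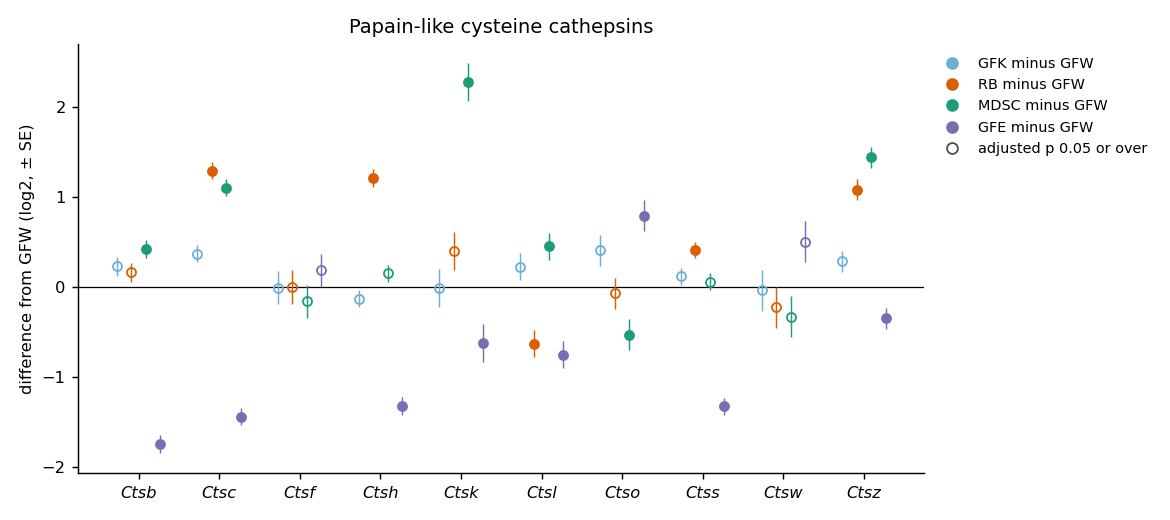
Log2 difference from GFW of the 10 papain-like cathepsins, with limma's SE as error bars and filled circles for an adjusted p under 0.05. RB and MDSC lay at or above GFW for most cathepsins, up to 2.28 log2 for Ctsk in MDSC, and GFE lay lowest at Ctsb (-1.75).

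Inhibitors of proteases outside the locus were tested beside the members, 18 of 22 that had a probe set. Stefin B (Cstb), the close relative of stefin A from another locus, was 9.85, 9.89 and 10.11 in GFW, 10.29, 10.09 and 9.90 in RB and 10.22, 10.26 and 10.10 in GFE. It was not called in RB (0.14 log2, adjusted p = 0.31) or GFE (0.24, 0.0738), and was 2.71-fold higher in MDSC (2.21e-08). Its arrays overlapped between GFW and RB and between GFW and GFE, whereas those of Stfa1, Stfa2l1, Stfa3 and Cstdc4 did not.

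Of the whey acidic protein family, Wfdc17 fell in both groups with low members (-2.44 log2 in GFE and -1.60 in RB, adjusted p of 9.91e-12 and 4.28e-09). It also fell in MDSC (-1.23, 3.41e-08), where 4 members stayed near their GFW level. Wfdc2 was not called in GFE or RB (-0.07 and -0.14, 0.744 and 0.545). Wfdc21 fell 52.7-fold in GFE (1.99e-10) and 8.35-fold in RB (8.18e-07) and was not called in MDSC (-0.40 log2, 0.27). Slpi, the secretory leukocyte protease inhibitor of neutrophil elastase, fell 40.2-fold in GFE (3.58e-14), 2.97-fold in RB (1.57e-07) and 5.15-fold in MDSC (6.39e-10). In all, 3 inhibitors were higher and 8 lower in GFE, 3 and 7 in RB, 5 and 6 in MDSC against GFW, and 8 and 5 in MDSC against RB. That made 11, 10, 11 and 13 of 18 called, beside 67.0%, 52.4%, 62.2% and 48.1% of all genes tested. The first 3 counts were near those shares. With single arrays left out, 7 to 9 were called in RB against 10, and 10 to 12 in MDSC minus RB against 13. Other inhibitors went the opposite way to the members in GFE, as Cst7, the cystatin F of immune cells, was 3.13-fold higher (1.06e-06) and Serpinb1a, an inhibitor of neutrophil serine proteases, 2.54-fold higher (1.51e-06). In RB Serpinb8 rose most, by at least 3.26-fold, and Serpinb1a rose 1.81-fold (3.0e-04). Serpinb8 was near background in every other group and passed the filter only through RB, so its rise is given without a test. The counts for RB and for MDSC against RB include it. In MDSC Cst7 rose 13.2-fold (1.21e-10) and Serpinb1a 8.5-fold (1.41e-10) over GFW. On the arrays labelled knockout 0 of 18 were called by limma, beside 1.61% of all genes tested. Of the 18, 0 had an unadjusted p under 0.05, and the lowest adjusted p was 0.552.

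Neutrophil genes were set beside the members as a marker list of 12. Their mean log2 signal was 11.39 to 11.44 over the GFW arrays, 11.36 to 11.47 over GFK, 9.07 to 9.17 over RB, 9.33 to 9.35 over MDSC and 6.29 to 6.47 over GFE. The log2 of their summed signal was 15.71 to 15.75, 15.66 to 15.71, 13.51 to 13.73, 14.57 to 14.62 and 11.48 to 11.60 in the same order. Of the 12, 0 were called on the arrays labelled knockout, 12 fell in GFE, and 10 fell in RB while Camp rose. In GFE 3 of them, Ly6g, Retnlg and Camp, were near background. Over all genes tested, 1.61% were called for GFK, 67.0% for GFE and 52.4% for RB against GFW. The members were chosen among neutrophil-type differences of these arrays, so that they were low with the list in RB and GFE follows from the choice. In RB the median difference from GFW was -6.16 log2 for the members and -2.08 for the list, with Ltf not called (-0.07). In GFE the medians were -7.70 and -5.22. The part of neutrophil content in those differences was not tested.

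MDSC cells separated the members from part of that list. In MDSC minus GFW 10 of the 12 were called, beside 62.2% of all genes tested. Against GFW, 7 neutrophil genes fell, with Ly6g lower by 6.39 log2 (adjusted p = 3.60e-16), the gelatinase Mmp9 by 6.22 (1.12e-14), the G-CSF receptor Csf3r by 4.53 (2.12e-14) and the chemokine receptor Cxcr2 by 4.37 (1.84e-12). Retnlg was at least 104-fold lower and near background. The granule genes Camp (3.78 log2, 1.78e-10), Ltf (2.80, 8.28e-11) and Ngp (0.997, 1.06e-04) rose, and S100a8 (-0.17, 0.135) and Lcn2 (-0.28, 0.215) were not called. Stfa1, Stfa2l1, Stfa3 and Cstdc4, with differences of 0.08 to -0.61, lay within the range of these 12 genes, nearest S100a8, S100a9 (-0.34) and Lcn2.

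**Figure D4:**
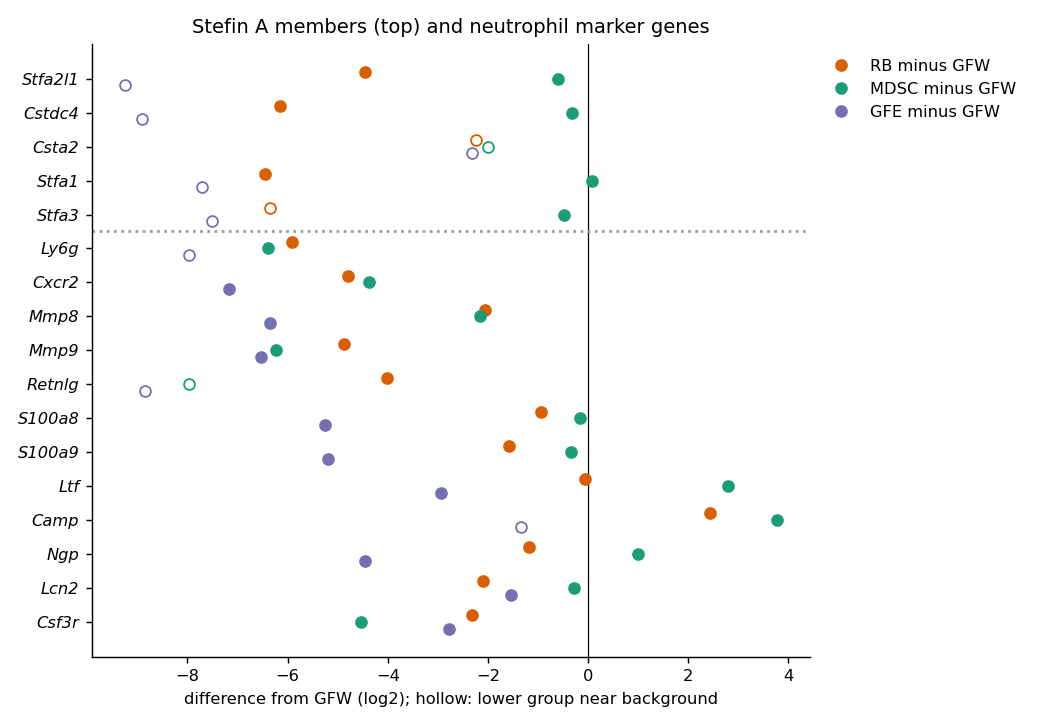
Log2 difference from GFW of the 5 members above the dotted line and of 12 neutrophil genes below it, hollow where the lower group was near background. In MDSC, Stfa1, Stfa2l1, Stfa3 and Cstdc4 stayed between 0.08 and -0.61 while Ly6g and Mmp9 were lower by more than 6 log2 and Camp and Ltf were higher.

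Other marker lists were read as mean signals, which do not measure the share of a cell type in a group. Over 7 monocyte genes the mean signal was 11.38 to 11.58 in RB, the group with low members, against 7.74 to 7.87 in GFW, 7.68 to 7.91 in GFK, 8.38 to 8.41 in MDSC and 6.64 to 6.88 in GFE. Over 5 progenitor genes it was 10.06 to 10.24 in GFE, against 7.95 to 8.09 in GFW, 7.87 to 8.05 in GFK, 7.12 to 7.30 in MDSC and 5.79 to 6.12 in RB. Genes of a list did not all move alike. Of the progenitor genes 4 were called higher in GFE than in GFW, and Kit was lower (10.85 against 11.43). All 7 monocyte genes were called higher in RB than in GFW, whereas in MDSC 3 were higher and 2 lower. Over all genes tested, 67.0% were called in GFE, 52.4% in RB and 62.2% in MDSC against GFW. Keratinocytes, another cell type with stefin A, were represented by 5 genes whose mean stayed at 5.40 to 5.74 in every group. The part of these differences in the members' levels was not tested.

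Genes outside the locus with a pattern most like the mean of the 5 members were ranked by the RMS difference of centred log2 values over the 15 arrays, on which the members' mean itself had an SD of 3.04. The nearest were Ceacam10 (0.891), a member of the carcinoembryonic antigen family of adhesion molecules, Wfdc21 (0.986), the acute phase gene Saa3 (1.07), the receptor gene Tarm1 (1.08) and Il1f9 (1.12), an interleukin-1 family cytokine. Ceacam10 was 10.25 ± 0.25 in GFW, 10.04 ± 0.24 in GFK, 9.80 ± 0.15 in MDSC, 5.62 ± 0.73 in RB and 4.97 ± 0.35 in GFE (SD, n = 3). It kept its MDSC level as 4 of the members did, whereas Saa3 stood at 9.89 ± 0.04 in MDSC, between its GFW level of 13.25 ± 0.01 and its RB level of 7.13 ± 1.06. Il1f9 likewise had 8.26 ± 0.08 in MDSC against 11.98 ± 0.08 in GFW.

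Without Csta2, a setting chosen after the values had been seen, the nearest were again Ceacam10, Wfdc21, Saa3, Il1f9 and Tarm1 (1.29 to 1.49, with a target SD of 3.50). For Stfa2l1 alone the nearest was the decoy receptor gene Il1r2 (1.33), which also kept an intermediate RB level of 9.04 ± 0.31 below its GFW level of 10.94 ± 0.04. Csta2 alone had other nearest genes, also ranked after its values had been seen. They were the immunoglobulin light chain segment Igkv5-43 (0.609), the macrophage gene Cd5l (0.64), the adenylate cyclase Adcy4 (0.70), the growth factor gene Csf1 (0.732) and the segment Igkj1 (0.74). Cd5l was 7.98 ± 0.46 in GFK, 6.32 ± 0.26 in GFW and 4.19 to 4.79 as group means in MDSC, RB and GFE. The likeness is a description over arrays that share groups.

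**Figure D5:**
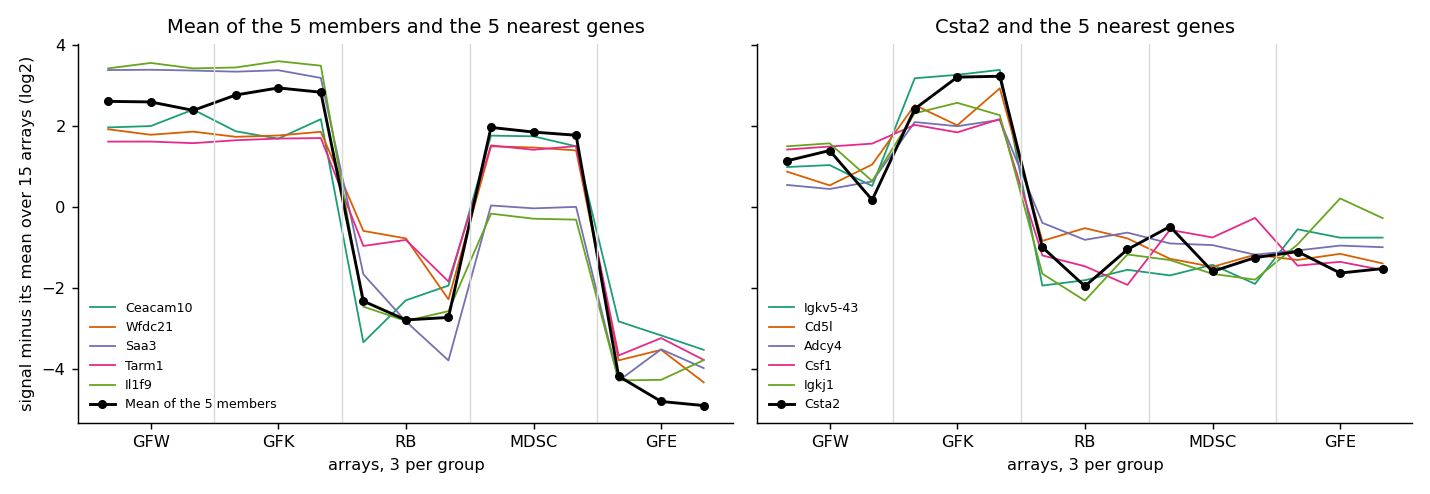
Log2 signal minus its mean over the 15 arrays for the mean of the 5 members (left) and for Csta2 (right), in black, with the 5 genes outside the locus of lowest RMS difference from each. The members' mean was high in GFW, GFK and MDSC, whereas Csta2 and its 5 nearest genes were highest in GFK.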

How the data were processed

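RNA of 15 samples was measured on 1 Affymetrix array each. Per the labels and the submitters' processing notes, the deposited values are log2 signals that the authors made with RMA in the oligo package (version not given in the sources used here). Values ran from 2.208 to 14.07 over 41345 probe sets, of which 23521 were listed with 1 gene symbol and used, 1814 with several and 16010 with none. Of those used, 23328 matched RefSeq GRCm38.p6, and 0 symbols were updated. The probe set with the highest mean over all arrays stood for a gene. Genes above the 40th percentile of single-symbol probe sets on at least 3 arrays were kept (14822, with 7358 removed).

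All arrays entered 1 linear model with group means (limma 3.58.1, run in R 4.3.3), moderated by eBayes with 5.33 prior beside 10 residual degrees of freedom. Adjusted p values are 2-sided Benjamini-Hochberg values over all genes tested, with calls under 0.05. The 5 comparisons share arrays and are not independent. An array gives no read depth, and the 3 arrays per group limit the precision. The fit was tested on simulated data. Promoters are RefSeq's and were aligned with Biopython 1.88 (Python 3.11.15). Tables used pandas 2.3.3 and numpy 2.4.6, figures matplotlib 3.10.9.

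The members and gene lists were chosen with earlier results of these data known. A planned test of Stfa1, Stfa2l1, Stfa3 and Cstdc4 in GFK minus GFW is not reported, since their values in these arrays led to their choice. Named genes are the members, the other genes of the locus, the 5 genes most like the members' mean, cathepsins B, L, S and H, and up to 4 called genes with the largest difference per list, comparison and direction. The list of the other locus genes, the promoter block, and likeness to single members were added after the data were seen, and Casr, Cstb, Cxcr2, S100a8, S100a9, Lcn2 and Wfdc2, and Wfdc21 in MDSC minus GFW, were named after their values were seen. Alternatives were array centring, no filter, fits of the 6 arrays compared, an intensity trend, means of probe sets, a replicate block and leaving out each array.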

Additional observations from a re-analysis of the deposited data

How the results depend on the processing

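The differences of the members were values without a test. The median member difference in MDSC minus GFW moved from -0.48 to -0.36 when each array was centred on its median, and stayed between -0.52 and -0.44 with single arrays left out. That centring moved the median of all genes by 0.14 log2 in GFE minus GFW and 0.12 in MDSC minus GFW, and the share of called genes that were higher from 52.3% to 63.8% and from 51.8% to 63.2%. With only the 6 arrays compared, flanking genes called fell from 1 to 0 for the arrays labelled knockout (74 genes called in all, against 239) and from 10 to 6 in RB. With an intensity trend 1 cathepsin, Ctsc, was called on the arrays labelled knockout instead of 0. Cstdc5 in MDSC minus GFW reversed to 0.5926 with the mean of its probe sets. With single arrays left out, flanking genes called ranged from 0 to 1 for the arrays labelled knockout and from 7 to 12 in RB, and cathepsins called in MDSC minus RB from 4 (without MDSC replicate 3) to 6 against 7.

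Of 260 results on single genes, 234 kept direction and side of the threshold under centring, 255 without a filter, 244 with the 6 arrays compared, 251 with the trend and 257 with means of probe sets, as did 1441 of 1560 with an array left out. These results include the differences of other locus genes and of Serpinb8 that are given above as values without a test. Replicate numbers did not pair the samples, as deviations of same-numbered arrays correlated at -0.0406 to 0.0431. With the replicate number as a block, 255 of 260 results were as before, and other inhibitors called in RB minus GFW were 9 instead of 10. The background of the arrays limits the size of a difference where the lower group is near it, as for all 5 members in GFE and for Stfa3 and Csta2 in RB.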
